A study of Homo sapiens with 6 samples.

Results

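The genes of the eukaryotic translation initiation factors (eIF) and elongation factors (eEF) were examined in wild-type (WT) HEK-293T cells and in THUMPD1 knockout (THUMPD1 KO) cells derived from them. Members were the rows whose symbol began with EIF and a digit from 1 to 6, or with EEF1, EEF2 or EEFSEC. The deposited table had 213 such rows, of which 136 pseudogene rows and 4 antisense or divergent rows were left out. This left 73 of the 58870 genes in the table, and all 73 were protein-coding in GENCODE 44. They comprised the factors themselves, the eIF2 kinases, the eIF4E-binding proteins and enzymes that modify elongation factors.

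HEK-293T is an immortalized human embryonic kidney line that carries the SV40 large T antigen. The WT libraries were labelled Thumpd+/+ and the THUMPD1 KO libraries Thumpd-/-, with 3 libraries per genotype and the same growth medium and temperature for both. The THUMPD1 KO line was 1 clone, sorted as a single cell after CRISPR-Cas9 editing, so that a difference between the genotypes and a difference between this clone and its parent cells cannot be told apart. THUMPD1 is the adaptor through which the acetyltransferase NAT10 forms N4-acetylcytidine in tRNA, and the comparison asked how the RNA of translation genes differs without it. Nothing in the labels says that the replicates came from separate cultures, so the p-values measure the spread between these libraries, which may be technical. Total RNA depleted of ribosomal RNA was sequenced to between 32225646 and 44099898 expected counts per library. Levels are given as CPM, counts scaled to these totals, as mean ± SD (n = 3), and a count of 0 allows up to 0.06803 to 0.0931 CPM, counting error only.

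The level of THUMPD1 itself was 77.3, 84.6 and 80.8 CPM in WT replicates 1, 2 and 3 and 10.2, 11.995 and 10.95 CPM in THUMPD1 KO replicates 1, 2 and 3. Among 8 markers of embryonic kidney epithelium or of this line, VIM and KRT18 were the most abundant, 6 passed the filter on low counts, and PAX8 and CDH6 were at or near 0. The markers of this list summed to 359 to 375 CPM in WT and 298 to 343 CPM in THUMPD1 KO, and 4 of the 6 tested were past the threshold, 2 higher and 2 lower. The part of this shift in the results below was not tested. Of 4 markers of mature kidney, 3 were at 0 in every library and the fourth stayed at or below 0.0680 CPM. Of 5 markers of blood, endothelial, connective tissue and liver cells, only COL1A1 passed the filter, at 9.00 to 17.0 CPM, and COL1A2 was at 0 in every library. COL1A1 fell by 0.48 on the log2 scale (limma-voom adjusted p = 0.01597), and its part in the results was not tested.

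Initiation in eukaryotes begins when eIF2, bound to GTP and initiator tRNA, joins the small ribosomal subunit together with eIF1, eIF1A, eIF3 and eIF5. The eIF4 factors bind the mRNA cap and unwind the leader, and eIF2B recharges eIF2 with GTP after each round. Kinases that phosphorylate the alpha subunit of eIF2 turn this cycle down under stress. During elongation eEF1A delivers aminoacyl-tRNA to the ribosome and eEF2 drives translocation. Many of the mRNAs for elongation factors and for some initiation factors begin with a cytosine followed by a run of pyrimidines, the terminal oligopyrimidine element through which mTOR signalling controls their translation.

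The first bases of the transcripts are shown for some members of this kind, as examples, beside EIF2S1 and EIF2B2 for contrast. Each window holds 10 bases before the RefSeq transcription start and 20 from it (GRCh38.p14), written 5′ to 3′ on the transcript's strand. Capitals mark an unbroken pyrimidine run that begins with C at the start site, and a window without capitals has none.
EEF1A1: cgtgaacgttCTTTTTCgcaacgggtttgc
EEF2: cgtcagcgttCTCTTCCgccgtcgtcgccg
EEF1B2: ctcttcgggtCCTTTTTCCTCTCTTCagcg
EIF2S3: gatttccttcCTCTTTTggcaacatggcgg
EIF2S3B: gactttcttcCTCTTTTggcaacatggcgg
EIF3D: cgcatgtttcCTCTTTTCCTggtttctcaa
EIF3F: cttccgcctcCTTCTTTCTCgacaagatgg
EIF4B: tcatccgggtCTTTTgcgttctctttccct
EIF2S1: gaggttccgcatgcgcggtggagtgagcga
EIF2B2: cgcccgccccggaagtgcaaactgtgtggt
These lie, in the same order, at chr6:73521013-73521042, chr19:3985444-3985473, chr2:206159885-206159914, chrX:24054946-24054975, chr12:10505880-10505909, chr22:36529147-36529176, chr11:7987327-7987356, chr12:53006446-53006475, chr14:67360318-67360347 and chr14:75002911-75002940, with EEF1A1, EEF2 and EIF3D on the minus strand. RefSeq promoter windows were found for 55 of the 69 members that passed the filter. Of these, 13 had at least 1 start site with C followed by 4 or more pyrimidines on the transcript's strand, and 13 of 72 member windows (18.1%) held such a run. In all, 1429 of 35116 RefSeq windows of the same length (4.07%) held it. The 13 genes were EEF1A1, EEF1B2, EEF2, EIF2A, EIF2D, EIF2S3, EIF2S3B, EIF3D, EIF3F, EIF3K, EIF3M, EIF4A2 and EIF4B. EEF1B2 and EIF2S3B each have another RefSeq start site without such a run, which is not shown. A match describes these letters alone, and the start site used in these cells was not measured.

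The summed level of the factor genes overlapped between the genotypes. Together they took 22385 ± 36.7 CPM in WT and 22371 ± 629.6 CPM in THUMPD1 KO, which was 2.19 to 2.31% of all counts. EEF1A1, which encodes the main form of eEF1A, alone held 22.3 to 23.9% of the counts of all members. On a scale divided by transcript length (TPM, the share of the summed length-corrected level), the WT level of EEF1A1 was 2329 TPM. It was followed by EEF1G (1625 TPM), a subunit of the exchange factor of eEF1A, EEF2 (1404 TPM), EIF5A (837 TPM), EIF4A1 (694 TPM) and EEF1B2 (654 TPM). The lowest member that passed the filter was EIF5AL1 at 0.621 TPM, a near copy of EIF5A. Levels per length within the eIF2 complex were unequal, with 231 TPM for EIF2S3, 127 TPM for EIF2S2 and 41.5 TPM for EIF2S1. A single length per gene, that of the GENCODE 44 canonical transcript, was used for this scale.

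**Figure D1:**
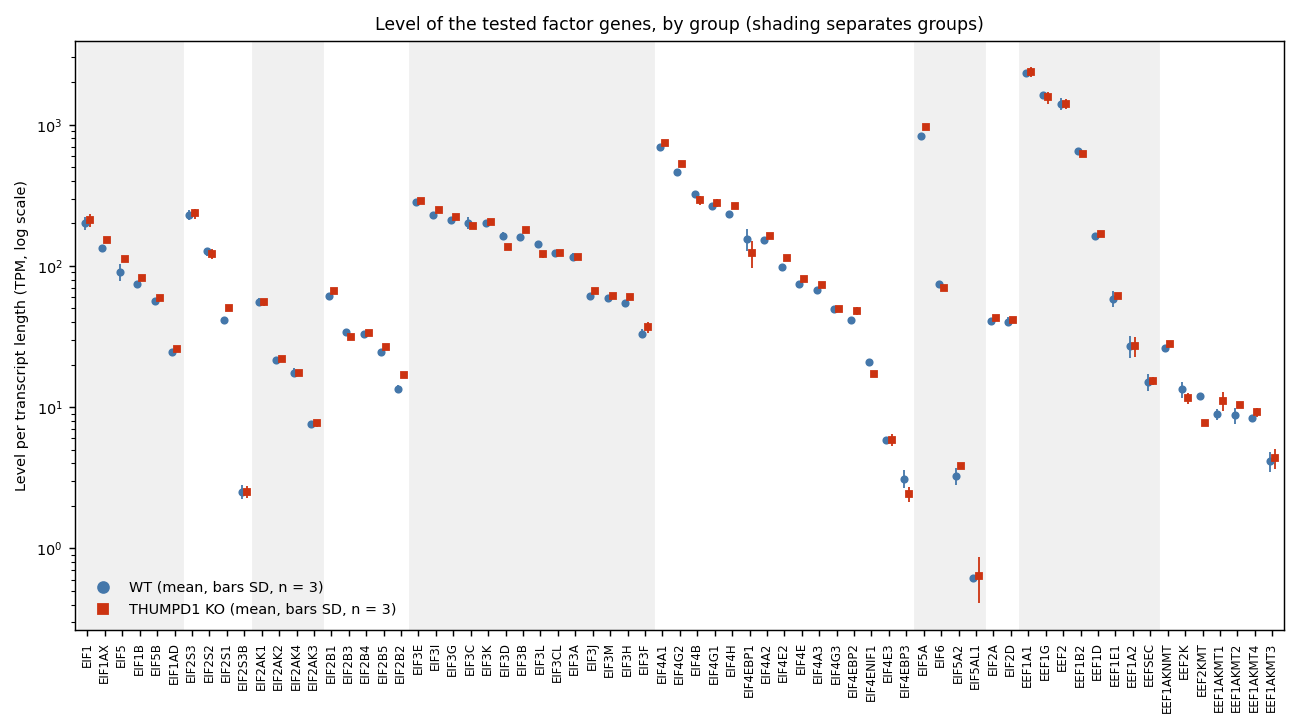
Level per transcript length (TPM, log axis) of the 69 members that passed the filter, ordered by WT level within each factor group. Circles are WT and squares THUMPD1 KO, each the mean with SD bars (n = 3), and the pairs of symbols lie close together throughout a range from 0.621 TPM for EIF5AL1 to 2329 TPM for EEF1A1 in WT.

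A minority of the members were called different between the genotypes, and the differences were small. Of 69 members at 1 CPM or more in at least 3 libraries, 15 (21.7%) passed an adjusted p of 0.05 by limma-voom. Of these, 7 were higher and 8 lower in THUMPD1 KO. Of all 15088 genes tested, 26.7% passed, 13.7% higher and 13.0% lower, so that the share of members was not above that of genes in general. The median log2 fold change of the members was −0.0039 and that of all genes 0.016. Their median size of change was 0.063 on the log2 scale, against 0.13 for all genes. The median SE was also smaller, 0.053 against 0.070, and genes of like level were not compared. Without adjustment, 21 members had p under 0.05. In 28 members (40.6%) the CPM values of the genotypes did not overlap, and this was so for 42.2% of all genes tested.

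The 4 members below the filter were EIF1AY, EIF4E1B, EEF1E1-BLOC1S5 and EEF1AKMT4-ECE2. The last 2 are readthrough genes whose exons largely belong to their neighbours.

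The replicate numbers were taken to pair the libraries, though the labels do not say so. With the number as a block 21 members were called, 9 higher and 12 lower, against 35.1% of all genes. The edgeR quasi-likelihood test called 10 members, 2 higher and 8 lower, against 25.7% of all genes. The split moved with the scaling: it was 3 higher and 8 lower with TMM library sizes, 8 higher and 7 lower with library sizes alone, and 6 higher and 9 lower with DESeq2, where 25.8%, 25.9% and 24.3% of all genes were called. The median log2 fold change over all genes was 0.016 in the main fit and 0.0049 with TMM library sizes. It was 0.030 with library sizes alone, 0.0043 by edgeR and 0.0049 by DESeq2. Without THUMPD1 KO replicate 3, the shallowest library, 5 members (7.25%) were called against 18.6% of all genes, and without THUMPD1 KO replicate 2 there were 8 (11.6%) against 17.6%.

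**Figure D2:**
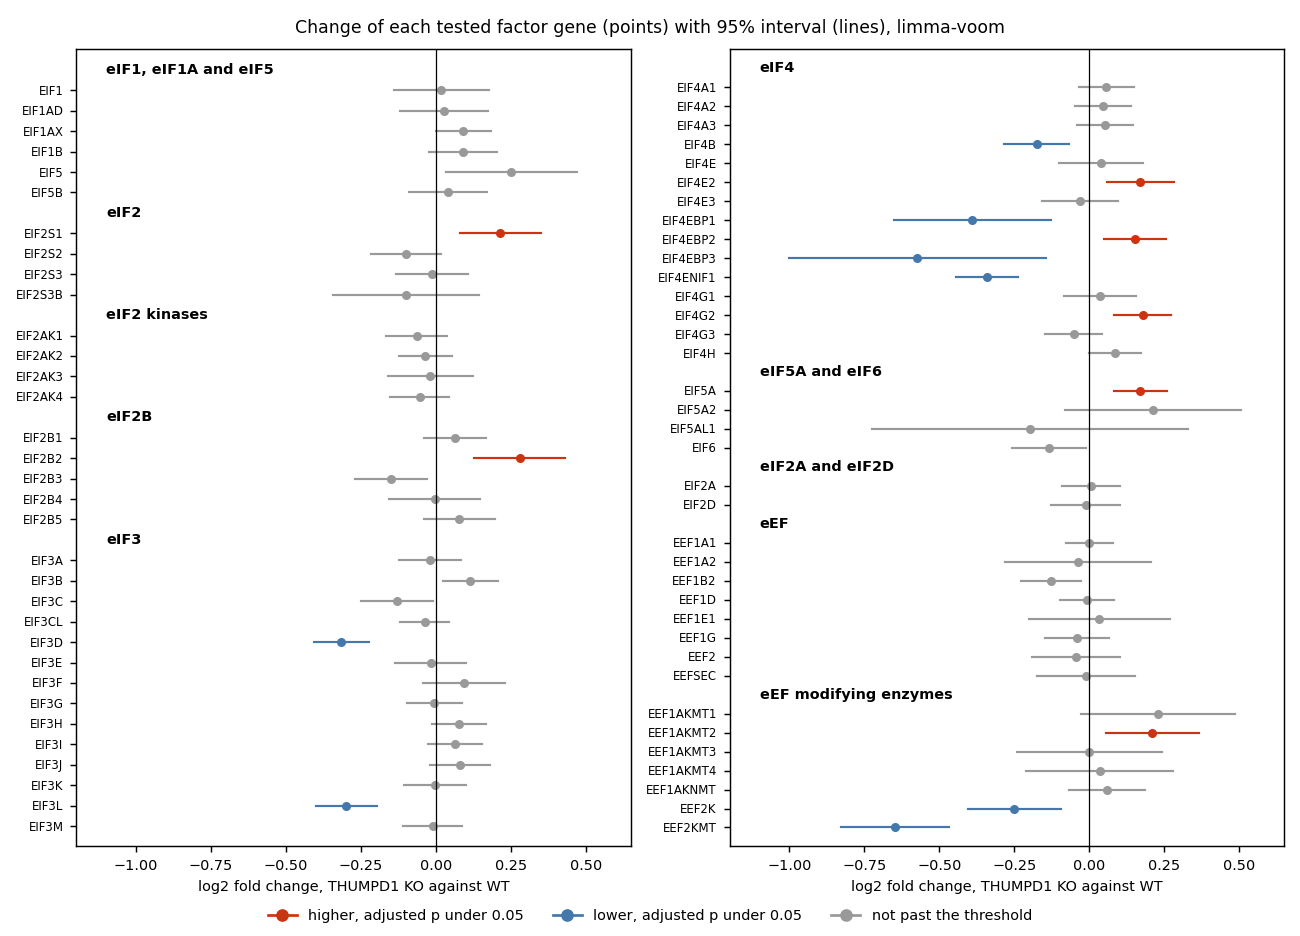
Log2 fold change of each of the 69 tested members in THUMPD1 KO against WT (points) with its 95% interval (lines), by factor group. Red marks the 7 members called higher and blue the 8 called lower at an adjusted p under 0.05 by limma-voom. The points gather around 0, with a median size of 0.063, and the lowest is EEF2KMT at −0.65.

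None of the 6 tested genes for start codon recognition and subunit joining was called, against 26.7% of all genes. EIF1, which keeps the scanning ribosome from pausing at poor start codons, was at 325, 278 and 303 CPM in WT and 336, 283 and 304 CPM in THUMPD1 KO, with overlap (log2 fold change 0.018). Its partner EIF1AX was at 365, 385 and 381 CPM in WT and 430.1, 419 and 406 CPM in THUMPD1 KO. The EIF1AX values did not overlap, yet its log2 fold change of 0.091 was not called (limma-voom adjusted p = 0.131), whereas library sizes alone and DESeq2 (adjusted p = 0.0445) called it. EIF5, the GTPase-activating protein of eIF2, stood at 268, 374 and 357 CPM in WT and 405, 404 and 388 CPM in THUMPD1 KO. The genotypes did not overlap, and WT replicate 1 lay well below the other WT libraries. On the log2 scale the difference was 0.25 (SE 0.099, limma-voom adjusted p = 0.0839), with a call only under the replicate block (limma-voom adjusted p = 0.0355) and without WT replicate 2. With a library left out the value lay between 0.11 and 0.35. All 6 tested genes of this group had positive log2 fold changes, from 0.018 to 0.25, and their summed level was 1312 ± 62.9 CPM in WT and 1435 ± 26.1 CPM in THUMPD1 KO, without overlap.

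In the eIF2 complex the alpha subunit rose and the others were not called (1 of 4 tested genes, 25%, against 26.7% of all genes). EIF2S1 (chr14:67360328-67386516), which encodes the alpha subunit that the eIF2 kinases phosphorylate, was at 100.4, 117 and 114 CPM in WT and 126, 135 and 129 CPM in THUMPD1 KO. Every THUMPD1 KO library was above every WT library. The level rose from 111 ± 9.04 to 129.8 ± 4.64 CPM, with a log2 fold change of 0.21 (SE 0.061, limma-voom adjusted p = 0.0255). This call was lost when THUMPD1 KO replicate 2 or 3 was left out, without a CPM filter, and with the trend along GC content and length removed. Over the 17 other fits the highest limma-voom adjusted p was 0.105. The call was kept by edgeR (adjusted p = 0.0482) and DESeq2 (adjusted p = 0.0166). EIF2S2, the beta subunit, was at 215, 207 and 199.95 CPM in WT and 208, 193 and 183 CPM in THUMPD1 KO, with overlapping genotypes and a log2 fold change of −0.10 (95% interval −0.22 to 0.016). It was called lower in 2 of the 17 other fits, without THUMPD1 KO replicate 1 and with the trend along GC content and length removed and the replicate block. EIF2S3, the gamma subunit that binds GTP and initiator tRNA, was at 541, 498 and 495 CPM in WT and 542, 489 and 487 CPM in THUMPD1 KO. The genotypes overlapped, at a log2 fold change of −0.015 (95% interval −0.14 to 0.11). EIF2S3B, an autosomal near copy of EIF2S3 whose reads the counting can split between them, was at 1.09% ± 0.0536 of EIF2S3 per length in WT and 1.07% ± 0.0611 in THUMPD1 KO. Its values were 4.59, 3.92 and 4.27 CPM in WT and 4.48, 3.75 and 4.18 CPM in THUMPD1 KO.

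None of the 4 eIF2 kinases was called, with or without the replicate block, against 35.1% and 26.7% of all genes. EIF2AK1 alone was called lower in 1 of the 17 other fits, with the trend along GC content and length removed and the replicate block (limma-voom adjusted p = 0.0445). EIF2AK1 (HRI), which responds to heme shortage and mitochondrial stress, was at 161, 153 and 159.6 CPM in WT and 159, 147 and 151 CPM in THUMPD1 KO. EIF2AK2 (PKR), the sensor of double-stranded RNA, was at 136, 136 and 139.7 CPM in WT and 137, 139 and 134 CPM in THUMPD1 KO. In both genes the genotypes overlapped. EIF2AK3 (PERK), the kinase of the endoplasmic reticulum, was at 21.6, 22.1 and 22.9 CPM in WT and 22.1, 22.2 and 20.7 CPM in THUMPD1 KO, also with overlap. EIF2AK4 (GCN2), which senses uncharged tRNA and stalled ribosomes, was at 65.04, 60.8 and 60.98 CPM in WT and 60.6, 59.6 and 58.99 CPM in THUMPD1 KO. Each of its THUMPD1 KO values lay below each WT value, by a small margin. The 95% intervals of the log2 fold changes were −0.17 to 0.037 for EIF2AK1, −0.12 to 0.051 for EIF2AK2, −0.16 to 0.12 for EIF2AK3 and −0.15 to 0.044 for EIF2AK4. Folds outside 0.891 to 1.09 were thus outside the interval of every kinase. Only RNA levels were measured, and kinase activity and phosphorylation of eIF2 were not.

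Among the 5 subunits of eIF2B, the exchange factor of eIF2, 1 was called (20%, against 26.7% of all genes). EIF2B2 (chr14:75002921-75012366), the beta subunit, was at 35.7, 40.4 and 35.4 CPM in WT and 42.3, 46.3 and 46.8 CPM in THUMPD1 KO, without overlap. It rose from 37.2 ± 2.83 to 45.1 ± 2.46 CPM, with a log2 fold change of 0.28 (SE 0.069, limma-voom adjusted p = 0.0132). The call was lost without WT replicate 3 or THUMPD1 KO replicate 2 or 3 (highest limma-voom adjusted p = 0.0619). EIF2B3, the gamma subunit of the catalytic part, went the other way, at 41.4, 41.5 and 41.1 CPM in WT and 36.7, 39.3 and 35.7 CPM in THUMPD1 KO. Its genotypes did not overlap either, and its log2 fold change of −0.15 gave a limma-voom adjusted p of 0.06401, 0.0344 with the block, and an edgeR adjusted p of 0.0369. EIF2B1, the alpha subunit, was at 91.2, 97.02 and 95.9 CPM in WT and 103, 95.01 and 100.01 CPM in THUMPD1 KO. EIF2B4, the delta subunit, was at 31.7, 36.99 and 34.9 CPM in WT and 33.6, 34.1 and 35.3 CPM in THUMPD1 KO, and the genotypes of both genes overlapped. EIF2B5, the catalytic epsilon subunit, was at 39.2, 40.6 and 41.6 CPM in WT and 41.7, 41.95 and 44.6 CPM in THUMPD1 KO, with THUMPD1 KO higher in every library and no call (log2 fold change 0.078, limma-voom adjusted p = 0.316). EIF2B2 shares 1098 and 185 exon bases with 2 noncoding annotations on the opposite strand.

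The eIF3 complex is the scaffold that holds the small subunit and the mRNA together. Of its 14 genes, 2 were called (14.3%, against 26.7% of all genes), both lower and both on chromosome 22. EIF3D (chr22:36510855-36529184), the subunit that can bind the cap of some mRNAs, was at 204, 198 and 188 CPM in WT and 159, 157 and 161 CPM in THUMPD1 KO. The genotypes lay far apart relative to their spread. It fell from 197 ± 7.85 to 159 ± 1.88 CPM, with a log2 fold change of −0.32 (SE 0.042, limma-voom adjusted p = 3.94e-04). EIF3L (chr22:37848868-37889407), a subunit at the edge of the complex, was at 239.8, 245 and 251 CPM in WT and 209.8, 198 and 193 CPM in THUMPD1 KO. It fell from 245 ± 5.74 to 200.4 ± 8.46 CPM, with a log2 fold change of −0.30 (SE 0.046, limma-voom adjusted p = 9.93e-04). Both calls held in all 17 other fits. The most abundant subunit genes per length were EIF3E (282 TPM in WT) and EIF3I (229.8 TPM), neither called. EIF3E was at 337, 377 and 384 CPM in WT and 369, 374 and 354 CPM in THUMPD1 KO, with overlap. EIF3I was at 205, 211 and 213 CPM in WT and 222, 214 and 226 CPM in THUMPD1 KO, every THUMPD1 KO library being higher, at a log2 fold change of 0.063 (95% interval −0.026 to 0.15).

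Apart from EIF3D and EIF3L, the log2 fold changes of eIF3 genes lay between −0.13 for EIF3C and 0.11 for EIF3B, and these were the only other members of the group with a call under the replicate block. EIF3B, an RNA-binding core subunit, was at 327, 312 and 311 CPM in WT and 336, 341 and 357 CPM in THUMPD1 KO (limma-voom adjusted p = 0.0625, 0.0422 with the block). EIF3C was at 403, 364 and 364 CPM in WT and 350.2, 336 and 359.9 CPM in THUMPD1 KO (limma-voom adjusted p = 0.104, 0.0406 with the block). EIF3C and EIF3CL are near-identical copies on chromosome 16, so their separate levels are uncertain. Over the 14 genes the summed level was 3256 ± 11.4 CPM in WT and 3200.1 ± 16.9 CPM in THUMPD1 KO, without overlap. Without EIF3D and EIF3L the other 12 genes summed to 2814 ± 9.83 CPM in WT and 2840.5 ± 14.05 CPM in THUMPD1 KO, with overlap. Per length the sum of all 14 was 2039 ± 55.8 TPM in WT and 2058 ± 49.6 TPM in THUMPD1 KO, also with overlap.

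In the eIF4 group 7 of 15 genes were called (46.7%, against 26.7% of all genes), 3 higher and 4 lower. This count moved with the fit, to 4 with TMM library sizes, 3 by edgeR, 2 without THUMPD1 KO replicate 3 and 1 at an adjusted p under 0.01, which 13.8% of all genes passed. The core of the cap-binding complex was not called. EIF4A1, its helicase, was at 772, 798 and 776 CPM in WT and 820.4, 802 and 799 CPM in THUMPD1 KO (log2 fold change 0.056). EIF4E, which binds the cap, and EIF4G1, the scaffold, had log2 fold changes of 0.039 and 0.034. The 8 members without a call lay between −0.052 for EIF4G3 and 0.085 for EIF4H, a partner of the helicase. EIF4H did not overlap between the genotypes and was called higher with library sizes alone and by DESeq2 (adjusted p = 0.031999). EIF4B, which stimulates the helicase, was at 798, 793 and 786 CPM in WT and 749.7, 685 and 668 CPM in THUMPD1 KO. Its WT libraries were tightly grouped and every THUMPD1 KO library lay below them. EIF4B fell by 0.18 on the log2 scale (SE 0.049, limma-voom adjusted p = 0.0218), a call lost when THUMPD1 KO replicate 2 or 3 was left out.

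EIF4G2, a relative of the scaffold that lacks the site for eIF4E and serves cap-independent initiation, was at 1051, 1178 and 1128 CPM in WT and 1215, 1278 and 1255 CPM in THUMPD1 KO. All THUMPD1 KO values exceeded all WT values. The difference was 0.18 on the log2 scale (SE 0.043, limma-voom adjusted p = 0.01204), but the call was lost with TMM library sizes, by edgeR (adjusted p = 0.105) and by DESeq2 (adjusted p = 0.0652). EIF4E2, a cap-binding relative of eIF4E that represses translation, was at 58.1, 62.7 and 63.02 CPM in WT and 70.1, 68.5 and 67.1 CPM in THUMPD1 KO, with a log2 fold change of 0.17 (limma-voom adjusted p = 0.0298). Its call was lost in 10 of the 17 other fits, with adjusted p up to 0.0919 by DESeq2.

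The genes of the 3 eIF4E-binding proteins, which hold eIF4E away from eIF4G until mTOR phosphorylates them, did not move together. EIF4EBP1 (chr8:38030534-38060365) was at 96.1, 74.5 and 76.7 CPM in WT and 77.7, 54.6 and 58.3 CPM in THUMPD1 KO. Replicate 1 was the highest of its genotype in both, and THUMPD1 KO replicate 1 overlapped the WT range, whereas each THUMPD1 KO library was below the WT library of the same number. EIF4EBP1 fell by 0.39 on the log2 scale (SE 0.12, limma-voom adjusted p = 0.0324), and with the replicate block the adjusted p was 9.11e-05 by limma-voom. Its call was lost in 6 of the 17 other fits, among them DESeq2 (adjusted p = 0.09904) and those without WT replicate 1 or THUMPD1 KO replicate 2 or 3. EIF4EBP2 (chr10:70404145-70428618) rose, from 203, 192 and 202 CPM in WT to 235, 213 and 225 CPM in THUMPD1 KO without overlap. The difference was 0.15 on the log2 scale (SE 0.047, limma-voom adjusted p = 0.0339), and the call was lost in 7 of the 17 other fits, edgeR included (adjusted p = 0.0588).

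Per length, EIF4EBP1 stood at 375% ± 47.5 of EIF4EBP2 in WT and at 256% ± 38.3 in THUMPD1 KO, and the genotypes did not overlap in this ratio. In replicates 1, 2 and 3 it was 430, 351 and 344% for WT, against 299.9, 233 and 234% for THUMPD1 KO. A library scaling factor cancels in such a ratio, which shows unequal change of the 2 genes and not which of them changed. EIF4EBP3 was near the filter, at 1.39, 1.19 and 1.58 CPM in WT and 1.01, 0.942 and 1.197 CPM in THUMPD1 KO with overlap. Its call (log2 fold change −0.57, limma-voom adjusted p = 0.0496) was lost in 12 of 16 other fits, each of the 6 with a library left out among them, and it shares 507 exon bases with the readthrough gene ANKHD1-EIF4EBP3.

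EIF4ENIF1 (chr22:31436977-31496108), whose protein carries eIF4E into the nucleus and into processing bodies, was at 48.1, 49.7 and 49.4 CPM in WT and 39.2, 38.6 and 38.7 CPM in THUMPD1 KO. The libraries of each genotype lay close together and the genotypes did not overlap. It fell from 49.1 ± 0.873 to 38.8 ± 0.312 CPM, with a log2 fold change of −0.34 (SE 0.048, limma-voom adjusted p = 5.35e-04) and a call in all 17 other fits. Ratios of other related genes within a library mostly overlapped between genotypes, such as EIF4A2 to EIF4A1 (21.9% ± 0.335 in WT and 22.2% ± 1.14 in THUMPD1 KO, per length). That of EIF4G3 to EIF4G1 did not, at 18.5% ± 0.253 in WT and 17.6% ± 0.701 in THUMPD1 KO.

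**Figure D3:**
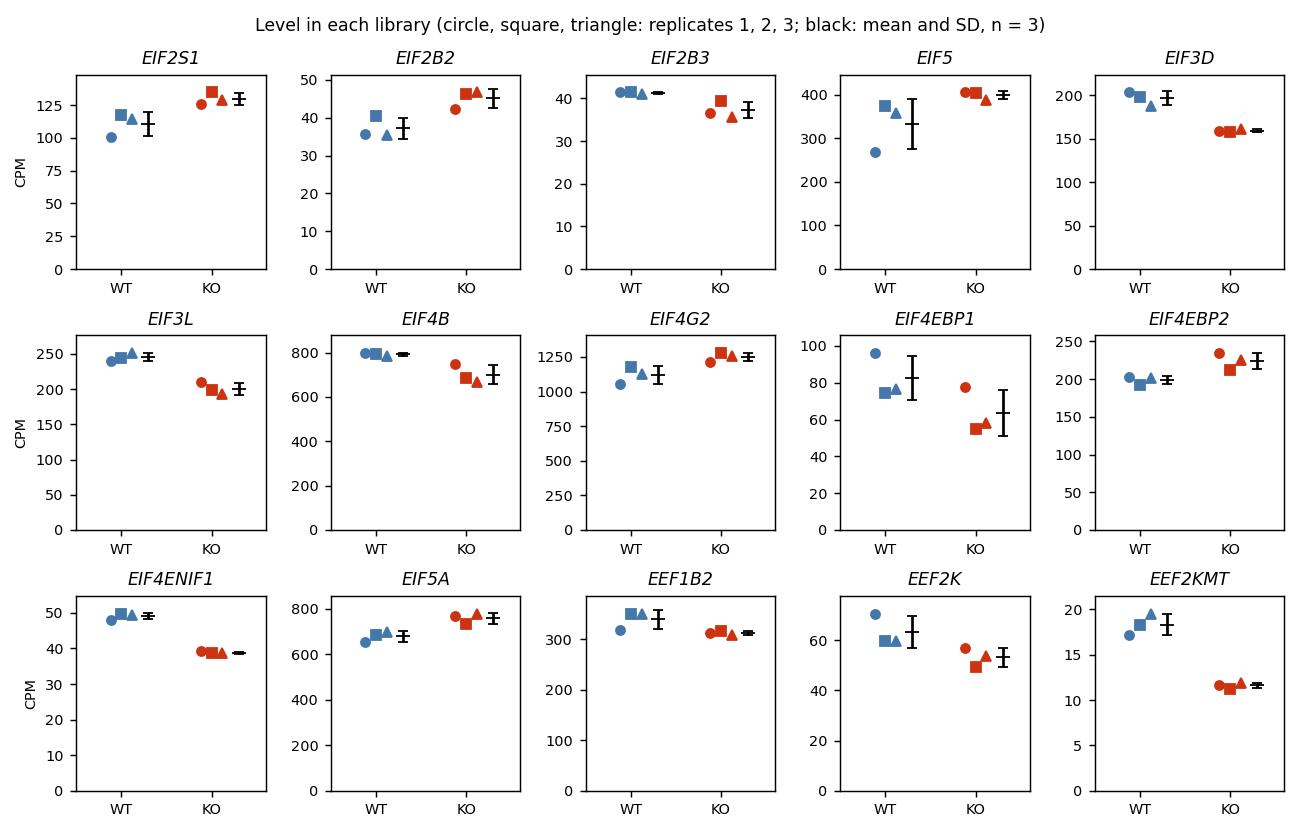
Level in each library (CPM, axes from 0) of 15 members described in the text, with circles, squares and triangles for replicates 1, 2 and 3 of WT (blue) and THUMPD1 KO (red), and the mean with SD in black (n = 3). EIF3D, EIF3L, EIF4ENIF1 and EEF2KMT separate widely, whereas in EIF4EBP1 replicate 1 is the highest in both genotypes.

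EIF5A (chr17:7306999-7312463), which carries hypusine and relieves ribosomes that stall during elongation, was at 653, 685 and 699 CPM in WT and 768, 732 and 777 CPM in THUMPD1 KO. All THUMPD1 KO libraries were higher. EIF5A rose from 679 ± 23.4 to 759 ± 24.02 CPM, with a log2 fold change of 0.17 (SE 0.040, limma-voom adjusted p = 0.0106). The call was lost with TMM library sizes, by edgeR (adjusted p = 0.07502) and without THUMPD1 KO replicate 3. EIF6, which keeps the ribosomal subunits apart, was at 48.1, 53.3 and 52.3 CPM in WT and 46.6, 46.8 and 47.1 CPM in THUMPD1 KO, without overlap (limma-voom adjusted p = 0.0955, 0.0381 with the block). EIF5A2, a relative of EIF5A, and EIF5AL1 were low and had wide 95% intervals, −0.083 to 0.51 and −0.73 to 0.33 on the log2 scale.

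EIF2A and EIF2D, factors of alternative initiation, overlapped between the genotypes. EIF2A was at 99.7, 102 and 102 CPM in WT and 103, 106 and 98.2 CPM in THUMPD1 KO, with a log2 fold change of 0.0051 (95% interval −0.092 to 0.10). EIF2D was at 54.4, 51.3 and 50.4 CPM in WT and 50.9, 53.99 and 50.02 CPM in THUMPD1 KO, with a log2 fold change of −0.013 (95% interval −0.13 to 0.10).

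None of the 8 tested elongation factor genes was called, against 26.7% of all genes. EEF1A1, EEF1G and EEF2 had the highest levels per length of all members. EEF1A1 was at 5174, 5264 and 5296 CPM in WT and 5510.4, 5043 and 4928 CPM in THUMPD1 KO. Its genotypes overlapped. It ranked 7 among all genes in every library, and quantile normalization gives such a gene the same value in each, so its log2 fold change in the limma-voom fit is 0 by construction. By edgeR it was −0.049 (adjusted p = 0.425). EEF2 was at 3046, 2654 and 2815 CPM in WT and 2928, 2592 and 2756 CPM in THUMPD1 KO, with a log2 fold change of −0.046 (95% interval −0.19 to 0.10). EEF1G was at 1529, 1514 and 1473 CPM in WT and 1533, 1347 and 1339 CPM in THUMPD1 KO (log2 fold change −0.041, 95% interval −0.15 to 0.064). By edgeR its log2 fold change was −0.12 (adjusted p = 0.0955), and the DESeq2 adjusted p was 0.0645. EEF1G shares 2632 of its 2639 exon bases with a readthrough gene on its strand. In EEF2 and EEF1G the genotypes overlapped.

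EEF1B2, the exchange factor subunit that reloads eEF1A with GTP, was at 318, 349.7 and 350.1 CPM in WT and 312, 316 and 309 CPM in THUMPD1 KO. Its genotypes did not overlap, with WT replicate 1 just above THUMPD1 KO replicate 2. On the log2 scale the difference was −0.13 (limma-voom adjusted p = 0.0598, 0.0384 with the block). EEF1A2, the form of eEF1A typical of muscle and neurons, stood at 1.16% ± 0.186 of EEF1A1 per length in WT and 1.15% ± 0.120 in THUMPD1 KO, with overlap. EEF1D, another exchange factor subunit, and EEF1E1, a protein of the aminoacyl-tRNA synthetase complex, had log2 fold changes of −0.008 and 0.033. EEFSEC, which delivers selenocysteine tRNA, was at 23.7, 21.2 and 19.2 CPM in WT and 22.003, 20.1 and 20.9 CPM in THUMPD1 KO.

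Among enzymes that modify elongation factors, 3 of 7 were called (42.9%, against 26.7% of all genes). Of these, 1 was higher and 2 were lower, both on chromosome 16. EEF2KMT (chr16:5084284-5097795), a methyltransferase that trimethylates a lysine of eEF2, was at 17.2, 18.3 and 19.5 CPM in WT and 11.7, 11.3 and 11.9 CPM in THUMPD1 KO. It fell from 18.3 ± 1.16 to 11.6 ± 0.322 CPM, the widest difference among the called members at a log2 fold change of −0.65 (SE 0.082, limma-voom adjusted p = 2.92e-04), with a call in all 17 other fits. EEF2K (chr16:22206278-22288738), the kinase that phosphorylates eEF2 and slows elongation, was at 70.4, 59.5 and 59.7 CPM in WT and 56.7, 49.1 and 53.6 CPM in THUMPD1 KO, without overlap. It fell by 0.25 on the log2 scale (SE 0.070, limma-voom adjusted p = 0.02296), a call lost without a CPM filter and without THUMPD1 KO replicate 2 or 3. EEF1AKMT2, a lysine methyltransferase of eEF1A, was at 22.4, 18.8 and 19.2 CPM in WT and 22.9, 23.7 and 22.5 CPM in THUMPD1 KO. On the log2 scale the difference was 0.21 (limma-voom adjusted p = 0.0473), and the call was lost in 12 of the 17 other fits. EEF1AKNMT (METTL13), which methylates eEF1A and had the highest level per length of this group, was at 54.01, 60.4 and 56.6 CPM in WT and 57.1, 59.2 and 61.1 CPM in THUMPD1 KO, with overlap. The remaining methyltransferase genes EEF1AKMT1, EEF1AKMT3 and EEF1AKMT4 were below 10 CPM and had no call in this fit, with 95% intervals of −0.027 to 0.48, −0.24 to 0.24 and −0.21 to 0.28.

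The members that kept their call in all 17 other fits, EIF3D, EIF3L, EIF4ENIF1 and EEF2KMT, lay among genes that were lower in THUMPD1 KO as well. On chromosome 22 the median log2 fold change of 372 tested genes was −0.34, with 250 called lower and 5 higher, and all 3 members there were called lower. For the 20 nearest tested genes outside the set, 10 on each side, the median log2 fold change was −0.42 around EIF3D, −0.36 around EIF3L and −0.36 around EIF4ENIF1, and 14, 17 and 14 of the 20 were called lower. Around EEF2KMT on chromosome 16 it was −0.32, with 14 called lower, against −0.65 for EEF2KMT itself. Chromosome 16, which also holds THUMPD1, had a median of −0.061 over 722 tested genes, with 221 called lower and 96 higher. Around EEF2K the median was −0.05, with 3 called lower. The part of these regions in the values of the members was not tested.

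Of the 7 members on chromosomes 16 and 22, 5 were called, all lower, and the median log2 fold change of the 7 was −0.30. By chromosome, 2 of 4 members on chromosome 16 and 3 of 3 on chromosome 22 were called. Among the other tested genes, 221 of 722 on chromosome 16 were called lower and 96 higher. On chromosome 22, 250 of 372 were called lower and 5 higher. Outside these chromosomes 10 of 62 members were called (16.1%, against 24.7% of all 13900 genes placed there), 7 higher and 3 lower, with a median of 0.012. The neighbours of EIF2S1, EIF2B2 and EIF4B had medians of 0.048, 0.038 and 0.021, and those of EIF5A −0.13, of the opposite sign to EIF5A.

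**Figure D4:**
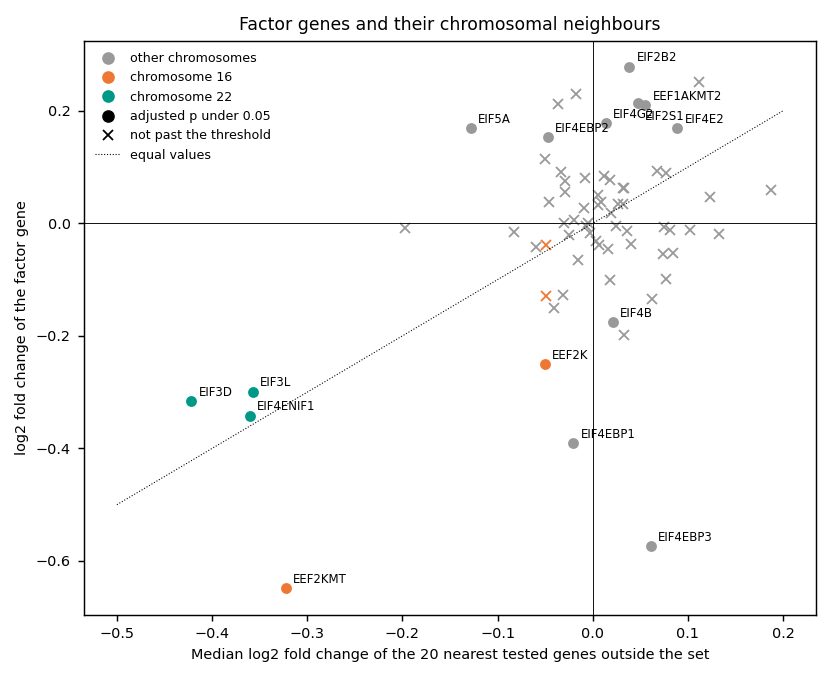
Log2 fold change of each tested member (vertical) against the median log2 fold change of the 20 nearest tested genes outside the set (horizontal), with the dotted line for equal values. Filled circles passed an adjusted p of 0.05 by limma-voom and crosses did not. The 3 members on chromosome 22 and EEF2KMT lie at the left, where the neighbours are lower as well.

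Members with a pyrimidine run at the start site, of which 8 windows are shown at the beginning, were counted apart from the others. Of the 13, 2 were called lower by limma-voom (EIF4B, and EIF3D on chromosome 22) and 0 higher. Of all genes tested, 26.7% were called. The median log2 fold change of the 13 was −0.013, with 9 negative. Of the other 42 members with a window, 7 were called higher and 3 lower, at a median of 0.038. These are counts over members chosen by name, and no test of the difference was made. Outside chromosome 22 the median of the 12 remaining genes with a run was −0.013. EEF2 and EEF1B2, which have such a run at a RefSeq start site, had no call in this fit, and neither did EIF3F or EIF2S3. EEF1A1, which is among the 13, could not be called in this fit, because its log2 fold change there is 0 by construction.

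Other genes of the pathway were counted from a list of translation, termination and signalling genes, of which 51 tested genes were not members. By limma-voom 9 of these (17.6%, against 26.7% of all genes) were called, 5 higher and 4 lower, at a median log2 fold change of 0.027. With the replicate block 16 were called, against 35.1% of all genes. GSPT1, the termination factor eRF3a, was at 295, 314 and 317 CPM in WT and 215, 240.3 and 236 CPM in THUMPD1 KO and fell by 0.44 on the log2 scale (limma-voom adjusted p = 1.56e-04). It lies on chromosome 16, as does TSC2, an inhibitor of mTOR signalling, which was at 124, 117 and 119 CPM in WT and 100.03, 99.3 and 114 CPM in THUMPD1 KO (log2 fold change −0.22, limma-voom adjusted p = 0.01299). DPH3 and DNAJC24, which act in the synthesis of diphthamide on eEF2, were higher in THUMPD1 KO. Their log2 fold changes were 0.29 (limma-voom adjusted p = 0.00392) and 0.25 (limma-voom adjusted p = 0.00403). The other 5 of the 7 diphthamide genes in the list were not called, DPH1, DPH2, DPH5 and DPH6 at −0.061 to −0.023 and DPH7 at 0.13. BZW1, a protein that mimics eIF5, rose by 0.19 on the log2 scale (limma-voom adjusted p = 0.00949), a call lost by edgeR (adjusted p = 0.0512). DHPS, which starts the synthesis of hypusine on eIF5A, fell by 0.22 (limma-voom adjusted p = 0.01796), with levels of 28.03 ± 0.579 CPM in WT and 23.9 ± 1.69 CPM in THUMPD1 KO.

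Reads shared with other annotations limit some of these values. Of the 69 tested members, 44 share exon bases with another annotated gene, 33 of them with a gene on the opposite strand and 17 with one on the same strand, and whether the counting used strand is not given in the sources used here. Among the genes called in all other fits, EEF2KMT shares 983 exon bases with ALG1 on the opposite strand. EIF3L shares 460 with ANKRD54 on the opposite strand and 1767 with a long noncoding annotation on its own strand. EIF4ENIF1 shares 471 with a noncoding annotation and 58 with SFI1, both on the opposite strand. Counts of the pseudogene rows came to at most 3.13% of the count of the parent, for EIF4E, and to 1.66% for EEF1A1. With these counts added to the parents, 15 members were called, 7 higher and 8 lower.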

How the data were processed

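RNA sequencing of 6 HEK-293T libraries was used, with groups and replicate numbers taken from the sample labels. Total RNA was isolated with Trizol and depleted of ribosomal RNA before stranded, paired-end sequencing. The authors aligned reads to GRCh38 (hg38) with STAR and deposited expected counts per gene estimated with RSEM, which need not be whole and are not scaled between libraries. Versions and the strand setting are not given in the sources used here. Positions, lengths and biotypes came from GENCODE 44, in which all 73 members were found, whereas the study's methods name a later release.

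The filter kept 15088 genes that reached 1 CPM in 3 or more of the 6 libraries, and these held 99.7 to 99.8% of the counts. The number of libraries is not stated in the study's methods. After quantile normalization, limma-voom (limma 3.58.1, R 4.3.3) was run with a genotype term alone, as in those methods. Two-sided p-values were corrected across the whole table (Benjamini-Hochberg), and a gene was called at an adjusted p under 0.05. For edgeR (4.0.16) and DESeq2 (1.42.0), the expected counts were rounded. The limma-voom fits with and without the block and edgeR were tested on simulated counts. TPM used the length of the canonical transcript. RefSeq start windows were read for C followed by pyrimidines, and members EIF2S2, EIF2AK1, EIF3A, EIF3CL, EIF3E, EIF3G, EIF3H, EIF3L, EIF4EBP1, EEF1A2, EEF1D, EEF1AKMT1, EEF1AKMT3 and EEF2KMT were without one.

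Both genotypes carry replicate numbers 1 to 3, whose meaning the labels leave unstated. Across 12957 genes with a mean count of at least 100, deviations of log2(CPM + 1) from the genotype means correlated at 0.297, 0.264 and 0.162 for equal numbers and at −0.291 to 0.114 for different ones. All 3 exceed 0.1, and the numbers were taken to pair the libraries. The value of 0.114, for WT replicate 2 with THUMPD1 KO replicate 3, exceeds 0.1 as well, so this threshold alone does not establish the pairing.

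Members and gene lists were chosen with earlier results of these data known. Values per library are given for every called member, every member whose call changed with the replicate block, all eIF2, eIF2 kinase and eIF2B genes, and the 2 members of each group with the highest level per length. Of the pathway list, the 6 genes with the smallest adjusted p are named. Other genes are named as examples. Alternatives were TMM library sizes, library sizes alone, edgeR, DESeq2, 1 CPM in all 6 libraries, no CPM filter, the replicate block, removal of the trend along GC content and exon length (splines with 5 degrees of freedom) with and without the block, sample quality weights, pseudogene counts added to parents, each library left out and an adjusted p under 0.01. Leaving out members on chromosomes 16 and 22 was added after seeing the data.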

Additional observations from a re-analysis of the deposited data

How the results depend on the processing

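EIF3D, EIF3L, EIF4ENIF1 and EEF2KMT kept their direction and their call in all 17 other fits, and no called member changed sign in any fit. The count of 15 called members became 8 (11.3%) without a CPM filter, where 10.1% of all genes were called. At an adjusted p under 0.01 it was 4, against 13.8% of all genes. With a library left out it lay between 5 and 15. The lowest was without THUMPD1 KO replicate 3, where 18.6% of all genes were called. For a count of few genes, a change of 1 exceeds 1.5 times. The cause of these changes was not tested.

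With the replicate block, counts became 1 (eIF1, eIF1A and eIF5), 2 (eIF2B), 4 (eIF3), 2 (eIF5A and eIF6) and 1 (eEF). Blocked values that change a call are given in the report, and the block changed no other member's call. With TMM library sizes, 2 eIF2B, 4 eIF4 and 0 eIF5A and eIF6 genes were called, and edgeR called 2, 3 and 0. With DESeq2, 1 gene of eIF1, eIF1A and eIF5, 2 of eIF2B, 4 of eIF4 and 1 of eEF were called. With library sizes alone, 1 gene of eIF1, eIF1A and eIF5 was called. Without a CPM filter the counts were 0 for eIF2, 3 for eIF4 and 1 for the modifying enzymes. With the trend along GC content and length removed they were 0 for eIF2, 2 for eIF2B, 3 for eIF4 and 1 for eEF. With this trend removed and the replicate block they were 2 for eIF2, 1 for the eIF2 kinases, 2 for eIF2B and 1 for eEF. Sample quality weights gave 2 for eIF2B, 2 for eIF5A and eIF6, and 1 for eEF. The share of all genes called rose too, from 26.7% in the main fit to 36.5% under these weights. It was 29.4% once GC content and length had been corrected for, and 37.4% when the block was added to this correction. Gained calls in these 3 fits are thus not specific to the groups of factors. At an adjusted p under 0.01 the counts were 0 for eIF2, 0 for eIF2B, 1 for eIF4, 0 for eIF5A and eIF6, and 1 for the modifying enzymes. With a library left out they lay between 0 and 1 for eIF1, eIF1A and eIF5, 0 and 2 for eIF2, 0 and 1 for eIF2B, 2 and 3 for eIF3, 2 and 5 for eIF4, 0 and 2 for eIF5A and eIF6, 0 and 1 for eEF, and 1 and 3 for the modifying enzymes.

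The median log2 fold change of the eIF2 kinases was −0.046, and −0.089 after removal of the trend along GC content and length, also with the replicate block. That of eIF3 was −0.0088, against −0.024 with TMM library sizes, 0.0024 with library sizes alone, −0.025 by edgeR and −0.025 by DESeq2, and between −0.024 and 0.011 with a library left out. That of eIF4 was 0.039, against 0.020 with TMM library sizes, 0.020 by edgeR, 0.021 by DESeq2, −0.010 after removal of the trend along GC content and length, also with the replicate block, and between 0.019 and 0.065 with a library left out. That of the modifying enzymes was 0.034, and between 0.011 and 0.082 with a library left out.

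Of the 69 tested members, 25 had the opposite sign in at least 1 other fit, and 0 of these were called by limma-voom. With a library left out, log2 fold changes lay between −0.056 and 0.082 for EIF1, −0.070 and 0.029 for EIF2S3, −0.057 and 0.013 for EIF2AK3, −0.078 and 0.052 for EIF2B4, −0.080 and 0.021 for EIF3E, −0.021 and 0.032 for EIF2A, −0.055 and 0.0095 for EIF2D, −0.10 and 0.040 for EEF2, and −0.077 and 0.057 for EEFSEC. After removal of the trend along GC content and length, the value was −0.0074 for EIF1 (−0.0070 with the replicate block), 0.0090 for EIF2B4 (0.0044 with the replicate block) and −0.054 for EIF2A, also with the replicate block. EIF3E was at 0.0031 with library sizes alone. EIF2A was at −0.0076 with TMM library sizes, −0.0077 by edgeR, −0.0068 by DESeq2 and −0.017 with sample quality weights, where EIF2D was at 0.0044. EEF1A1 was at 0 in the quantile-normalized fits that kept the trend along GC content and length. Its values were below 0 under each other scaling and in the fits with this trend removed.

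With 3 libraries per genotype the median SE of a member's log2 fold change was 0.053, which limits what could be detected. Genes near 1 CPM, such as EIF4EBP3, rest on few counts, and the EIF4EBP3 call was lost whichever library was left out.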
